A study of Mus musculus with 4 samples.

Results

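Fatty acid oxidation, ketogenesis and peroxisome genes were examined as a set of 50 genes chosen by name. They were looked up by exact symbol in the authors' deposited table, which lists 7000 genes, and 30 of the 50 were found there. The samples were livers of male FVB/N mice on a torula yeast diet to which either no selenium (0 Se, 2 mice) or 0.1 ppm selenium as sodium selenite (0.1 Se, 2 mice) had been added for 6 weeks from weaning. All 4 animals were wild type, and whole liver was used, so a level averages over all its cells, and fewer cells of a type cannot be told apart from less RNA per cell. The study asked how selenium supply changes liver mRNAs. The level of each gene in the table is 1 mean over all 4 libraries, of both diets. The spread between mice, the depth of each library and the difference between the diets were not analysed here. The results describe how abundant the mRNAs of this pathway were on average across the 4 livers. An order of levels is therefore a description without an error, and neighbours in it were not tested against each other.

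Fatty acids reach the mitochondrial matrix as carnitine esters and are shortened there in repeated rounds of dehydrogenation, hydration, oxidation and thiolysis. Liver turns much of the acetyl-CoA into ketone bodies, the fuel that it exports in fasting. Peroxisomes shorten very long and branched chains by a parallel set of enzymes, and peroxins are the proteins that build the organelle and import those enzymes. PPAR-alpha is the nuclear receptor that raises many of these genes in the fasted liver. The 50 genes were described in 4 groups, namely 22 mitochondrial oxidation and ketogenesis genes, 9 peroxisomal enzymes, 9 peroxins and 10 fasting and PPAR-alpha targets with lipid droplet and uptake genes.

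The peroxisomal enzymes differ from their mitochondrial counterparts in the last codons of their reading frames, where most carry the code for the peroxisome targeting signal, a serine, lysine and leucine ending or a close variant of it that the import receptor Pex5 binds. The sequences below show this difference. Each gives the last 30 bases of the longest complete reading frame in GENCODE vM1 (NCBIM37, the assembly named mm9), 5′ to 3′, with the 3 final codons before the stop in capitals. First come peroxisomal enzymes whose ends code for the signal:
Ehhadh: ttggcaggaccccatagcAGCAAACTGtga
Acox2: ctgatgcaaagctggaaaCCCAAGCTGtga
Acot3: aaaaagaagacaatcccaGCAAAACTGtga
Acot4: acccacagcagagcctccTGTAGACTGtag
Decr2: gagtttgaatccttctctGCTAAGCTGtag
Eci2: agcttcgtctccagaaaaCCAAAGCTGtga

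Next come the peroxisomal thiolases, which lack that ending, the mitochondrial counterparts Acot2, Decr1 and Eci1, the carnitine acetyltransferase Crat, and the cytosolic thioesterase Acot1:
Acaa1a: gctgcggtctttgaatacCCTGGGAACtga
Acaa1b: gctgcggtctttgaatacCCTGGGAACtga
Acot2: ttccacaaacagttgggtAGCAAGAGTtag
Decr1: gggctcatcaggaagacaAAAGGCTCCtaa
Eci1: ttggaaaagctcaagcaaAAGAAGGGCtaa
Crat: ctccagaaccaccccaggGCCAAGCTCtga
Acot1: gagtgtttgcatgtgtctCCTAAAATAtaa

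The final codons of 7 of the 9 peroxisomal enzymes had the form of the signal, taken as serine, alanine, cysteine or proline, then lysine, arginine or histidine, then leucine, methionine or isoleucine. Ehhadh alone among the 50 members had the serine, lysine and leucine ending itself. The enzymes without the form were Acaa1a and Acaa1b, which share the same last 30 bases and belong to the thiolases known to be imported through a signal at the other end of the protein. Of the 22 mitochondrial genes, 2 had the form, Crat and Acad11. None of the 9 peroxins had it, nor did 9 of the 10 fasting and PPAR-alpha targets, the exception being Acot1. Over all 21370 protein-coding genes with a complete reading frame in that annotation, 196 (0.917%) had the form. These matches describe letters at the ends of reading frames and do not show where a protein lies in these livers.

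Of the mitochondrial genes 10 were listed, of the peroxisomal enzymes 7, of the peroxins 5 and of the fasting and PPAR-alpha targets 8. The 20 members that were not listed, and have no level here, were Cpt2, Acadvl, Acad11, Hadh, Hadha, Hadhb, Bdh1, Acat1, Etfa, Etfdh, Decr1, Eci1, Acox2, Hsd17b4, Pex3, Pex7, Pex13, Pex16, Ppargc1a and Vnn1. The rows of the table are ordered by the p-value of the authors' own comparison of the diets, so a gene that is missing may not have passed their filter, may have come after the last row, or may stand under another name. RefSeq gives older names for 19 of these 20 members, and none of those names was in the table. Being listed is therefore no measure of abundance, as the absence of the abundant hepatocyte gene Alb shows. Of the hepatocyte marker genes looked up, 7 of 12 were listed and all 7 lay above the 90th percentile of listed genes. None of 7 muscle, 5 adipocyte or 4 kidney markers was listed under these symbols. Slc17a2, which RefSeq gives as an older name of the kidney marker Slc34a1, was listed, but it is also the current symbol of another gene and was not counted. Of 6 symbols of Kupffer cell markers, which include both Adgre1 and its older name Emr1, 4 were listed, at 5.15 to 74.8 CPM per kb, and of 5 red blood cell markers Alas2 was listed at 19.1 CPM per kb.

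Levels are given as the authors' mean CPM over the 4 libraries, that is counts scaled to the total of each library, divided by the length of the listed mRNA in kilobases, so that genes of different length can be compared. The median of all 7000 listed genes was 6.19 CPM per kb, and their 90th percentile was 57.5. These listed genes are not all genes of the liver, and abundant ones such as Alb are absent. Every median, percentile and rank given here therefore holds among listed genes only, and could differ against all liver genes. Of the 30 listed members, 25 lay above that median and 13 above the 90th percentile. Their own median was 44.2 CPM per kb, 7.13 times that of all listed genes. The median level was 127.6 CPM per kb for the mitochondrial genes and 124.0 for the peroxisomal enzymes, against 23.4 for the peroxins and 11.1 for the fasting and PPAR-alpha targets. The mitochondrial median rests on 10 of 22 genes, with Bdh1 and Acat1 among those not listed. Each member was placed in a single group, so genes that PPAR-alpha raises can also stand in the other groups. The levels of the groups overlapped, and the enzymes Acot2, Acot3, Crat and Acot4 were below every listed peroxin. With Crat and Eci2 moved to the other enzyme group, the median was 177.1 for the mitochondrial genes and 54.4 for the peroxisomal enzymes. Per kilobase of mRNA that can be told from other genes, the order turned, with 133.9 for the peroxisomal enzymes and 127.6 for the mitochondrial genes.

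**Figure D1:**
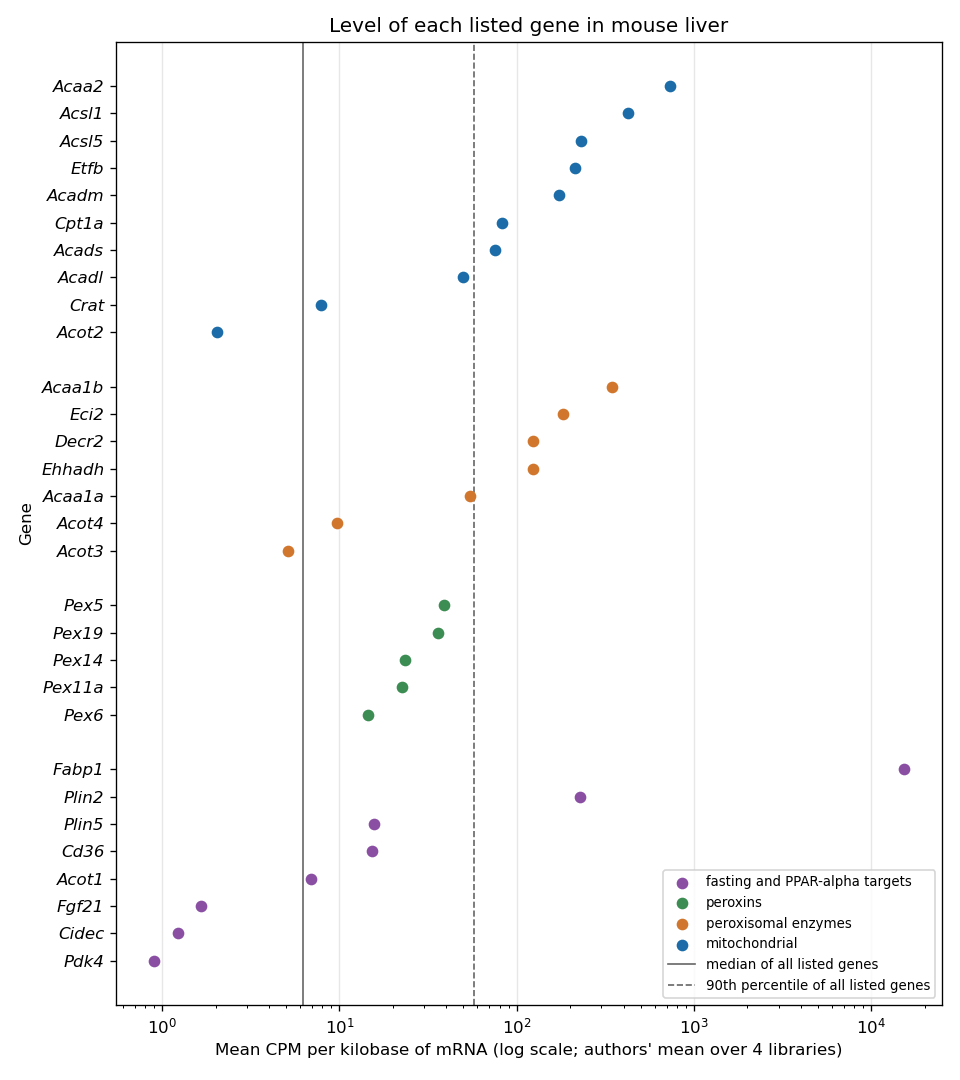
Each point is 1 listed gene, placed by the authors' mean CPM over 4 libraries per kilobase of mRNA (log scale) and coloured by group, with vertical lines at the median (6.19) and the 90th percentile (57.5) of all listed genes. Most enzymes lie right of the median line, the 5 peroxins lie between the lines, and the fasting and PPAR-alpha targets run from Pdk4 at 0.893 to Fabp1 at 15367.

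Among the mitochondrial genes, the highest level was that of Acaa2, the thiolase of the last step of each round, at 734.0 CPM per kb from 1101 mean CPM. It was 61st of the 7000 listed genes. The gene lies on chromosome 18. Acsl1 and Acsl5 encode acyl-CoA synthetases, which activate fatty acids before they are oxidised or built into lipid. Acsl1 was at 426.2 CPM per kb and Acsl5 at 230.4, a ratio of 1.85. In mean CPM Acsl1 (1658) was above Acaa2, and division by its mRNA of 3891 bases put it below.

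Etfb, a subunit of the electron transfer flavoprotein that takes electrons from the acyl-CoA dehydrogenases, was at 213.6 CPM per kb. Its partner subunit Etfa and the oxidoreductase Etfdh were not listed. The dehydrogenases themselves, which are specific for chain length, differed from each other. Acadm, for medium chains, was at 172.8 CPM per kb, 2.30 times Acads, for short chains, at 75.3. Acadl, for long chains, was the lowest of them at 49.7, and Acadm exceeded it 3.47-fold. The very long chain enzyme Acadvl was not listed.

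Cpt1a, which makes the acylcarnitines at the outer membrane and is the regulated entry step of the pathway, was at 82.4 CPM per kb (chr19:3323301-3385732), higher than 92.6% of listed genes. Its mRNA is long (4301 bases), and its mean CPM of 354.2 was close to that of Acadm at 356.3. The lowest mitochondrial members were Crat at 7.91 CPM per kb and the acyl-CoA thioesterase Acot2 at 2.05. Acot2 was the one listed member of this group below the median of all listed genes. The highest level of the group exceeded the lowest 358-fold, or 197-fold per kilobase of mRNA that can be told from other genes.

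The peroxisomal enzymes were led by Acaa1b, a thiolase, at 345.7 CPM per kb of whole mRNA. Eci2, an enoyl-CoA isomerase needed for unsaturated chains, followed at 181.4. Decr2, a dienoyl-CoA reductase that also serves unsaturated chains, and Ehhadh, the bifunctional enzyme of the middle steps, had nearly equal levels of 124.1 and 124.0. These 4 were the peroxisomal members above the 90th percentile of listed genes. Ehhadh lies at chr16:21761360-21787917 of NCBIM37. Acaa1a, the other thiolase gene, was at 54.4, just below that percentile on this scale. Both thiolase genes share most of their sequence, and their levels on another scale are given with the comparison of near-identical copies. The acyl-CoA thioesterases Acot4 (9.67) and Acot3 (5.11) were the lowest, and Acot3 was below the median of all listed genes (6.19 per kilobase of whole mRNA). Per kilobase that can be told from other genes Acot3 was at 6.41, above that value. Of the pairs that serve the same reaction in both organelles, only the peroxisomal member was listed for Decr1 and Decr2 and for Eci1 and Eci2, so the organelles could not be compared for these reactions.

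**Figure D2:**
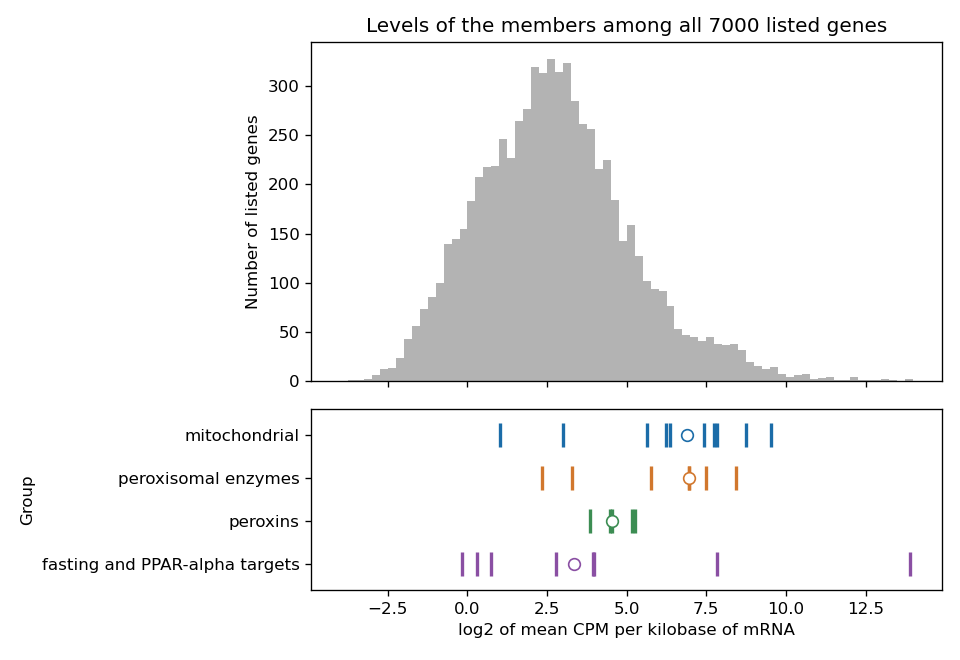
The upper panel counts all 7000 listed genes by the log2 of mean CPM per kilobase, and the lower panel marks each listed member of the 4 groups with a tick and the group's median with a circle. The circles of the mitochondrial genes and the peroxisomal enzymes lie far to the right of the peak of all genes, and Fabp1 is the rightmost tick.

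The peroxins spanned a narrow range, with all 5 listed members above the median of all listed genes and none above the 90th percentile. Pex5, the receptor that binds the targeting signal shown above, was at 38.6 CPM per kb and lies at chr6:124346834-124365085. Pex19, the chaperone and receptor of peroxisomal membrane proteins, was at 35.8, and Pex14, the docking protein for Pex5, at 23.4. Pex11a, which acts in the division of peroxisomes, was at 22.4. Pex6, a subunit of the ATPase that recycles Pex5, was the lowest at 14.5, and the highest peroxin exceeded it 2.67-fold. Without division by length, Pex11a was the lowest of the 5, at 19.7 mean CPM from an mRNA of 879 bases.

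The fasting and PPAR-alpha targets were the most unequal group. Fabp1, the liver fatty acid binding protein of the cytosol, was at 15367 CPM per kb. It was the highest of all 7000 listed genes on this scale, 1.04 times the apolipoprotein gene Apoa2 at 14845, but 11th by mean CPM without division by length. Its mean of 7561 CPM made up 51.4% of the summed CPM of the 30 listed members. The gene lies at chr6:71149821-71155017 on the plus strand of NCBIM37 and has 4 exons. Its listed mRNA is short, at 492 bases, and the annotated transcript nearest to it has 553 bases, a difference of 12.4% and the largest among the listed members. With that length Fabp1 was at 13672 CPM per kb and ranked 2nd, below Apoa2. Cd36, a fatty acid translocase of the cell membrane, was at 15.3 CPM per kb.

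Plin2, the coat protein of lipid droplets in liver, was at 227.1 CPM per kb, above the 90th percentile, and lies at chr4:86294290-86315964. Plin5, a coat protein of droplets in oxidative tissues, was at 15.6, so that Plin2 was 14.5 times higher. Cidec, a lipid droplet fusion protein typical of fat tissue and fatty liver, was at 1.22 CPM per kb, higher than 15.4% of listed genes. Of the 8 listed genes of the group, 3 were below the median of all listed genes, namely Cidec, Fgf21 and Pdk4. Fgf21, a hormone that the liver secretes in fasting, had a mean of 1.56 CPM, or 1.65 CPM per kb, and lies at chr7:52869277-52870860. Pdk4, the kinase that shuts off pyruvate dehydrogenase when fat is burned, was the lowest listed member per kilobase, at 0.893 (3.09 mean CPM), and lies at chr6:5433351-5446309. Such means are near the authors' filter of more than 1 CPM in at least 3 samples. Ppargc1a, the coactivator of the fasting response, was not listed.

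**Figure D3:**
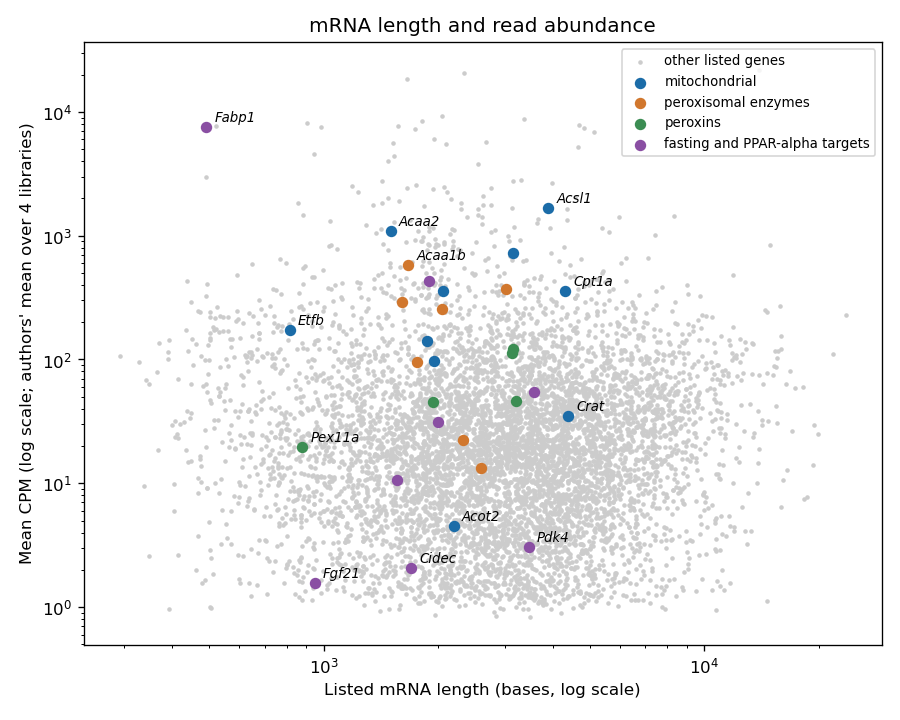
The listed mRNA length (bases, log scale) is plotted against the authors' mean CPM over 4 libraries (log scale), with the other listed genes in grey and the members coloured by group. Fabp1 combines an mRNA of 492 bases with 7561 mean CPM, whereas Fgf21, Cidec and Pdk4 lie at the bottom with 1.56 to 3.09.

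The authors counted only reads that aligned to a single mRNA with up to 2 mismatches, so members with near-identical copies lose reads. For each listed member, every 50-base stretch of its annotated mRNA was compared with the longest protein-coding mRNA of every other gene at that tolerance. For 20 of the 30 members none of these stretches was shared. Sharing exceeded 10% for 7 members, all of the Acot and Acaa1 families and Eci2. Acaa1b could be told from other genes in 23.4% of its stretches and Acaa1a in 36.7%. These genes lie 184200 bases apart on chromosome 9, Acaa1b at chr9:119057141-119066211 on the minus strand and Acaa1a at chr9:119250412-119259413 on the plus strand, and their reading frames are 96.5% identical. Acaa1b was 6.36 times Acaa1a per kilobase, and 9.98 times per kilobase that can be told apart. On the latter scale Acaa1b was at 1477 CPM, above Acaa2 at 734.0, and Acaa1a at 148.0, above the 90th percentile of listed genes (57.5 per kilobase of whole mRNA).

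The Acot genes stand in a row on the plus strand of chromosome 12, with Acot2 at chr12:85328811-85334823, Acot1 at chr12:85350448-85358621, Acot4 at chr12:85379329-85385673 and Acot3 at chr12:85393094-85400515. They encode related thioesterases that act in mitochondria (Acot2), the cytosol (Acot1) and peroxisomes (Acot3 and Acot4). The reading frames of Acot1 and Acot2 are 95.5% identical, and 41.8% of the stretches of Acot1 and 54.9% of those of Acot2 could be told from other genes. Per kilobase that can be told apart, Acot1 was at 16.4 CPM, Acot4 at 12.2, Acot3 at 6.41 and Acot2 at 3.73, against 6.86, 9.67, 5.11 and 2.05 per kilobase of whole mRNA. The order of Acot1 and Acot4 turned between these scales, and Acot2 was the lowest on both. Eci2 shared 21.0% of its stretches, each of them with Eci3.

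**Figure D4:**
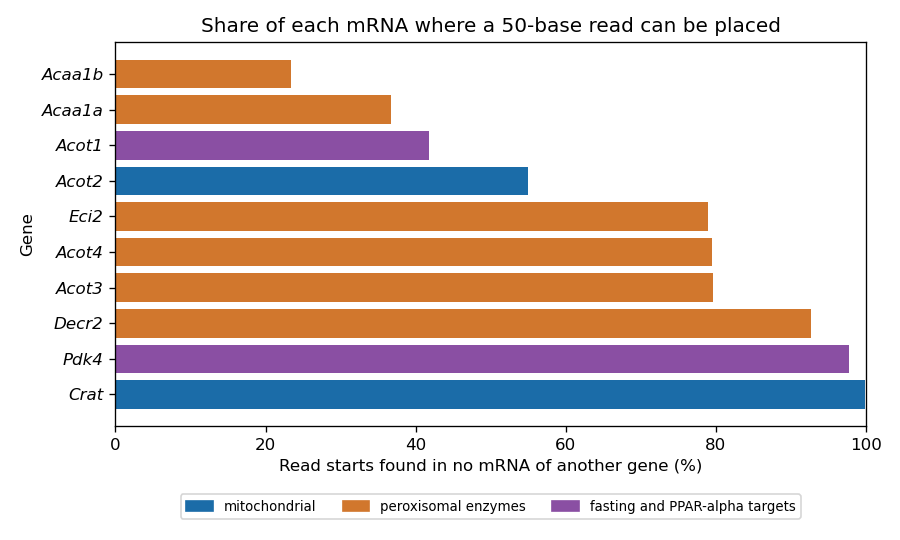
Bars give, for the 10 listed members with any shared stretch, the percentage of 50-base read starts found in no mRNA of another gene at up to 2 mismatches. Acaa1b has the smallest share at 23.4%, followed by Acaa1a at 36.7% and Acot1 at 41.8%.

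Other genes of the pathway outside the 50 were looked up in 3 further lists. Of 20 further mitochondrial oxidation and ketogenesis genes 6 were listed, all above the median of listed genes and 3 above the 90th percentile. Among them Acsm1, a medium-chain acyl-CoA synthetase, was at 257.2 CPM per kb, Acadsb at 71.1, Pccb at 54.4 and Mlycd, which removes the malonyl-CoA that inhibits Cpt1a, at 35.0, and Acad10 was the lowest at 7.69.

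Of 30 further peroxisome genes 17 were listed, 14 above the median and 11 above the 90th percentile. Scp2, a lipid carrier and thiolase, was at 2144 CPM per kb, Cat, the catalase that removes the hydrogen peroxide made in this organelle, at 1477, and Phyh, which starts the breakdown of branched phytanic acid, at 1359. Slc27a2, a very long chain acyl-CoA synthetase, was at 714.8. Abcd2 (3.99) and Abcd4 (2.65), transporters of the ABC family, were the lowest in this list. Whether the protein of each gene in the list lies in peroxisomes was not examined.

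Of 28 further PPAR-alpha pathway genes 15 were listed, 8 above the median and 3 above the 90th percentile. Ppara, which encodes PPAR-alpha, was at 47.9 CPM per kb, and Rxra, its DNA-binding partner, at 66.1. Angptl4, an inhibitor of lipoprotein lipase, was the highest at 71.5. Lpin2 (64.1) and Lpin1 (53.8), phosphatidate phosphatases, completed the 5 highest. Slc27a1 (1.31) and Plin4 (0.384) were the lowest.

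PPAR-alpha with its partner binds direct repeats of AGGTCA with 1 base between them. The 250 bases before the start of transcription were searched on both strands in the RefSeq promoter table (GRCm38.p6), which held 52 promoters of 43 of the 50 members. The full letters, AGGTCA, any base and AGGTCA, were in none of them and in 0.0335% of all 32851 promoters in the table. The looser letters, AGGNCA, any base and AGGNCA, which include the full ones, were in 0.338% of all promoters and in 1 member promoter, that of Fabp1. It is shown because Fabp1 had the highest level of the listed members. The match lies on the strand opposite to the gene, starts 67 bases before the transcription start, and is in capitals as read along the gene:
Fabp1: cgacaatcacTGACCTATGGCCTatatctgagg

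The letters TATAAA on either strand, the core of a TATA box, were in 12.4% of all promoters and in those of 5 members, Acot4, Fabp1, Fgf21, Pex14 and Pex16. In Fabp1 and Fgf21 they read along the gene and start 30 and 28 bases before the transcription start, as shown here in capitals:
Fabp1: agaatcccctTATAAAataggcaaca
Fgf21: cctgtctgggTATAAAttctggtatt

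The cyclic AMP response element TGACGTCA was in 1.55% of all promoters and in that of 1 member, Pex13, which has no level here. A match says only that the letters are in this window, and a missing match only that they are not.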

How the data were processed

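Liver RNA of 4 mice was depleted of ribosomal RNA by the authors and sequenced as single-end reads of 50 bases. The authors removed ribosomal reads, kept unique Bowtie alignments with up to 2 mismatches to RefSeq mRNAs (mm9, the longest isoform of a gene) and ran edgeR on genes above 1 CPM in at least 3 samples. No source used here names the versions of these programs. The deposited log2 CPM values are the authors' mean over the 4 libraries, and the table also gives the mRNA length. Its other columns hold the authors' comparison of the diets (log2 fold changes, p-values and FDR) and were not used, beyond a check of the order of the rows. Depth per library is therefore unknown here, and no counting interval was set.

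The mean CPM was taken as 2 to the power of the deposited value and divided by length. Annotation and mRNA sequences came from GENCODE vM1 on NCBIM37, whose transcripts were matched by symbol, taking the one nearest in length (29 of the 30 listed members within 10%). Promoters came from RefSeq (GRCm38.p6). The planned diet test needed a column for each mouse and was not run. The planned description of proteins was made on codons of the reading frames. Calculations were tested on simulated data. Members and gene lists were chosen with earlier results of these data known. The genes named are the 3 highest and 3 lowest of each group, the paralogs, Cpt1a, Fgf21, Pdk4 and Ppargc1a, and the 5 highest and 2 lowest of each further list, of which some are not reported here. The others were named after their values were seen. Python 3.11.15, numpy 2.4.6, pandas 2.3.3, Biopython 1.88 and matplotlib 3.10.9 were used.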

Additional observations from a re-analysis of the deposited data

How the results depend on the processing

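The count of listed members above the median listed gene was 25 of 30 and stayed between 21 (of 24, without the Acot and Acaa1 families) and 26 under the alternatives tried, namely no division by length, lengths less 49 bases, genes of at least 1 CPM as background, those families left out, and levels per kilobase that can be told apart. The count above the 90th percentile was 13 and ranged from 12 to 14 under the same alternatives. The order of the 4 group medians was the same with no division by length, with means of log2 levels, and with Crat, Acad11 and Eci2 in the other enzyme group. The last of these moved the peroxisomal median from 124.0 to 54.4 and the mitochondrial one from 127.6 to 177.1 CPM per kb (Acad11 has no level). Per kilobase that can be told apart, an alternative chosen after seeing the data, only 2 of the 4 groups kept their rank. The peroxisomal enzymes, at 133.9 CPM per kb, then came before the mitochondrial genes at 127.6. That scale was applied to the members only. The other lengths tried for Fabp1 were also chosen after seeing the data, and its rank of 1 became 2 with the annotated length and 11 by mean CPM. The looser repeat was in the promoter of 1 member, against 0 for the full letters.

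The alternatives planned for a diet comparison (another normalization, no filter, each mouse left out) were not run, since values of single mice were not analysed here. The means carry no error, and their precision is unknown. No paired analysis was possible because the 0 Se and 0.1 Se mice share no replicate number.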
